A study of Mus musculus with 18 samples.

Results

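Spinal cords that carried human TDP-43 together with human ATXN2 of 22 glutamines were compared with cords that carried that ATXN2 alone. The comparison takes 6 of the 18 RNA sequencing libraries, 3 in each group, chosen by the genotype on their labels. The mice with both proteins are heterozygous for knock-in hATXN2-Q22 and knock-in hTDP-43 (Q22;TDP-43 on the labels, called the Q22 double knock-in here). The mice they were set against are heterozygous for knock-in hATXN2-Q22 only (Q22). All were untreated and 10 months old, and the labels name 1 animal for each library. Both groups therefore share the ATXN2 knock-in, and human TDP-43 is the difference between them. The locus and promoter of either knock-in, the litters, the sex of the animals and the time of day of collection are not given in the sources used here. Replicate numbers only name the libraries. The other 12 libraries, 3 each from Q33 double knock-in, Q33 (the form with 33 glutamines), TDP-43 and non-transgenic C57BL/6 mice (NTg), entered the same fit and served to ask whether the TDP-43 difference varied with the ATXN2 background.

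TDP-43, encoded by Tardbp in the mouse, is a mainly nuclear RNA-binding protein that controls splicing and the level of many neuronal transcripts, its own included. It leaves the nucleus and aggregates in motor neurons in most cases of amyotrophic lateral sclerosis (ALS). ATXN2 is a cytoplasmic RNA-binding protein of polysomes and stress granules that binds the poly(A)-binding protein. Tracts of 22 glutamines are the common human form, and moderately longer tracts raise the risk of ALS.

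The cord carried the markers its label asks for. Of 19 motor neuron markers 18 averaged at least 1 CPM (counts per 1000000 counts) in both groups, and the 20 myelin genes together held 13432 to 17993 CPM in the double knock-in and 14679.9 to 18658 CPM in Q22. Libraries held 23968036, 25194968 and 19878021 counts in the double knock-in and 22169692, 19796403 and 23852604 counts in Q22. At these depths 3 counts corresponded to 0.119 to 0.152 CPM. Sex was not balanced: summed reads of 4 Y-linked genes exceeded 10 CPM in 1 of 3 double knock-in libraries and in 3 of 3 Q22 libraries. Replicate 2 of Q22 stood apart, with Xist, the transcript of the inactive X chromosome, at 99.9 CPM beside 200.6 CPM of Y-linked reads. Whether RNA of a second animal entered that library was not tested. Replicate 1 of the double knock-in stood apart by its reads of Hox10 and Hox11 genes (7 in the table), whose expression marks lower cord levels. They summed to 94.5 CPM there and to 3.97 and 4.61 CPM in the other double knock-in libraries, against 1.99, 1.83 and 44.2 CPM in the Q22 libraries. Mitochondrial ribosomal RNA took 18.7% ± 1.78 of counts in the double knock-in and 20.1% ± 0.539 in Q22 (SD, n = 3 each; exact two-sided permutation p = 0.2, where 0.1 is the smallest p possible with 3 against 3).

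**Figure D1:**
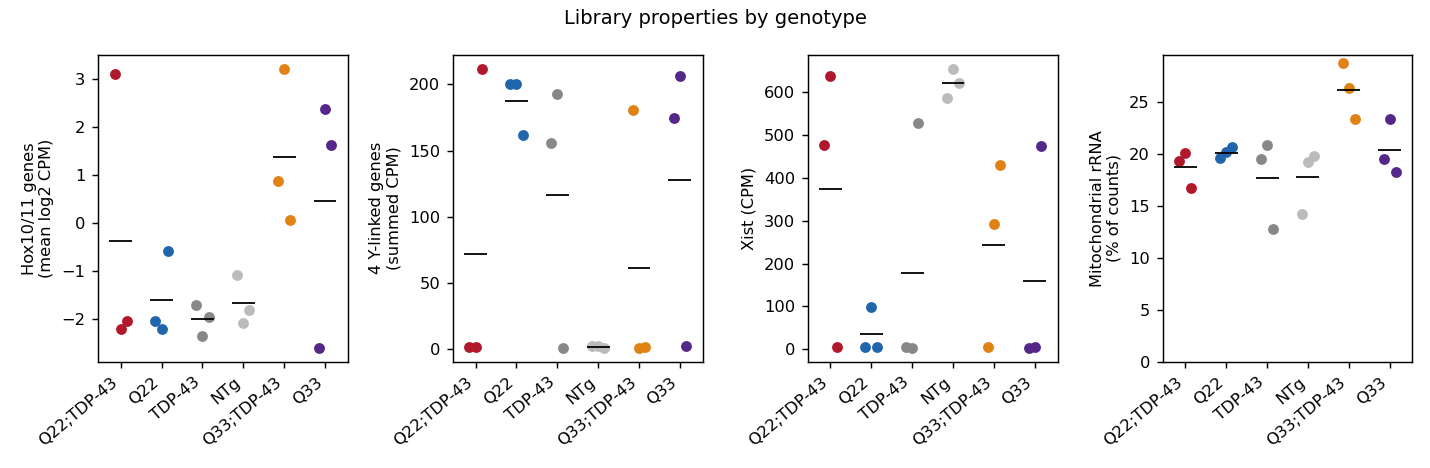
Properties of each library by genotype, as points with the group mean as a bar: mean log2 CPM of Hox10 and Hox11 genes, summed CPM of 4 Y-linked genes, Xist in CPM, and mitochondrial ribosomal RNA as a percentage of counts. Double knock-in replicate 1 has the high Hox value in its group, and Q22 replicate 2 has 99.9 CPM of Xist beside its Y-linked reads.

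Mouse Tardbp was read first, because TDP-43 protein lowers its own transcript. Tardbp (ENSMUSG00000041459.15, chromosome 4, 148612382 to 148627019 of mm10) had 122.7, 129.6 and 111.6 CPM in the double knock-in, against 110.0, 107.3 and 110.4 CPM in Q22. All 3 double knock-in libraries lay above all 3 Q22 libraries, the closest pair 111.6 against 110.4 CPM. The fitted log2 fold change was 0.15 (SE 0.07), with an unadjusted p of 0.039 and an edgeR adjusted p of 0.97, so it did not pass the test. Mouse Atxn2 (ENSMUSG00000042605.16, chromosome 5, 121711337 to 121816493) had 167.6, 178.0 and 184.5 CPM in the double knock-in, against 176.0, 186.0 and 185.2 CPM in Q22. Its groups overlapped, with a log2 fold change of -0.05 (SE 0.08, edgeR adjusted p = 0.98) that changed sign with the scaling. Because the count table covers mouse genes alone, neither value measures the human sequences or checks the genotypes.

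No gene passed the test when human TDP-43 was added to Q22. Of 20635 genes tested, 0 were higher and 0 lower (0% called; edgeR quasi-likelihood test, Benjamini-Hochberg adjusted p under 0.05), and the smallest adjusted p was 0.97. An unadjusted p under 0.05 was found for 851 genes (4.12%), where 1032 are due by chance, and DESeq2 gave 0 higher, 0 lower and 821 genes at an unadjusted p under 0.05. All 3 double knock-in libraries lay above all 3 Q22 libraries for 1016 genes (4.92%) and below them for 1023 genes (4.96%). The fold change was positive for 47.3% of the genes, with a median log2 value of -0.01.

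The intervals of the fold changes show how precisely single genes were measured. Where either group averaged 1 CPM or more (16690 genes), the median SE of the log2 fold change was 0.16. The 95% interval of the fold change lay within 2-fold in both directions for 88.4% of these genes and within 1.5-fold for 62.8%. Over all 20635 genes the shares were 73.2% and 50.8%.

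**Figure D2:**
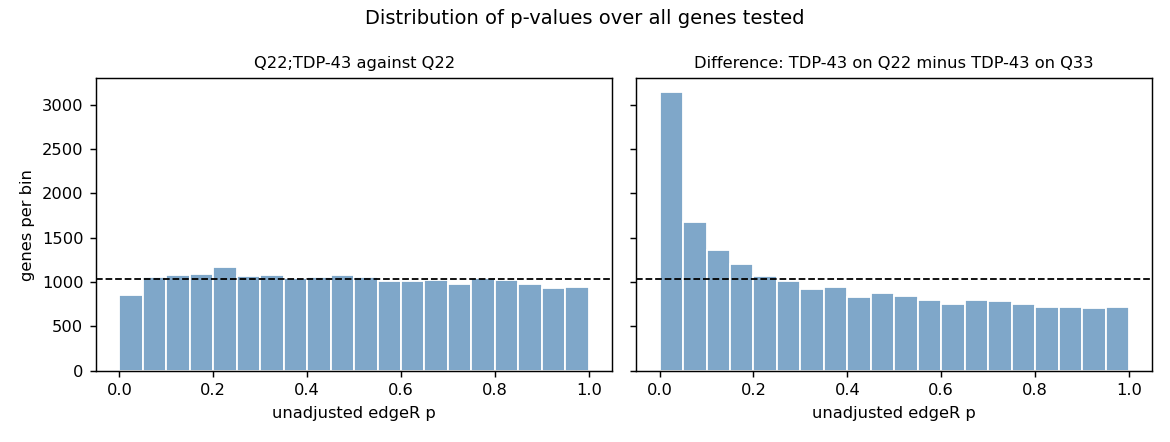
Number of genes (vertical axis) in each of 20 equal bins of the unadjusted edgeR p (horizontal axis), for the Q22 double knock-in against Q22 (left) and for the difference between TDP-43 on Q22 and TDP-43 on Q33 (right). The dashed line is an even spread of 1032 genes per bin; on the left the lowest bin holds 851 genes and on the right 3141.

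The genes that came closest are given as values, since none passed. Of the 20 smallest p-values among genes with at least 1 CPM in either group, 10 belonged to gene models without a known role and 10 to named genes. Fold changes were positive for 10 and negative for 10. In 9 of the 20 all double knock-in libraries lay above all Q22 libraries and in 9 all lay below, against 4.92% and 4.96% of all genes, but the choice by p favours such genes. All 20 had an edgeR adjusted p of 0.97.

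Ftx, a long noncoding RNA of the X inactivation centre that promotes Xist (ENSMUSG00000086370.8, chromosome X, 103560907 to 103623754), had 54.8, 61.4 and 57.1 CPM in the double knock-in, against 31.6, 41.9 and 40.2 CPM in Q22. The groups did not overlap, and the log2 fold change was 0.61 (SE 0.15), with an unadjusted p of 0.00059. The double knock-in library with Y-linked reads, replicate 3, lay among the other 2, and with a term for sex the fold change was 0.54. All 3 Q22 libraries had Y-linked reads, and the part of sex in this difference was not tested. Ftx had 61.5, 53.6 and 58.8 CPM in NTg cords and 55.6, 36.5 and 47.8 CPM in TDP-43 cords. Capn11, a calpain-family protease gene known from testis, had 0.983, 1.42 and 0.646 CPM in the double knock-in, against 4.30, 5.49 and 5.79 CPM in Q22 (log2 fold change -2.33, SE 0.59). That was the lowest fold change among the named genes of this set, at a low level throughout. In the groups without ATXN2 its order was the other way round, with 5.15, 0.942 and 3.65 CPM in TDP-43 cords, against 0.806, 0.470 and 0.801 CPM in NTg cords.

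Kcnh3, a voltage-gated potassium channel of the forebrain, had 0.860, 1.23 and 0.922 CPM in the double knock-in, against 0.236, 0.198 and 0.294 CPM in Q22 (log2 fold change 2.02, SE 0.54). Nuak2, a stress-responsive kinase related to AMPK, had 1.06, 1.04 and 1.34 CPM in the double knock-in, against 0.236, 0.494 and 0.546 CPM in Q22 (log2 fold change 1.41, SE 0.39). Both were low in every library and had non-overlapping groups. Zfp488, a zinc finger protein of oligodendrocyte differentiation, had 12.1, 15.9 and 10.0 CPM in the double knock-in, against 8.51, 8.55 and 8.90 CPM in Q22 (0.55, SE 0.15). The zinc finger genes Zfp235 (0.46, SE 0.12) and Zfp354b (0.60, SE 0.17) also had positive log2 fold changes. So did Wdr78 (0.50, SE 0.12), a dynein subunit gene of motile cilia, at 18.6, 21.8 and 22.4 CPM in the double knock-in and 14.2, 15.1 and 15 CPM in Q22. Among the named genes of this set, Pls1, Aox4 and Capn11 were lower in all double knock-in libraries and the other 7 higher. Pls1, an actin-bundling plastin gene, had 30.3, 34.1 and 31.0 CPM in the double knock-in, against 38.9, 42.4 and 40.8 CPM in Q22 (-0.36, SE 0.09). Aox4, an aldehyde oxidase gene, had 1.47, 0.424 and 0.876 CPM in the double knock-in, against 2.88, 3.26 and 2.01 CPM in Q22 (-1.55, SE 0.44).

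**Figure D3:**
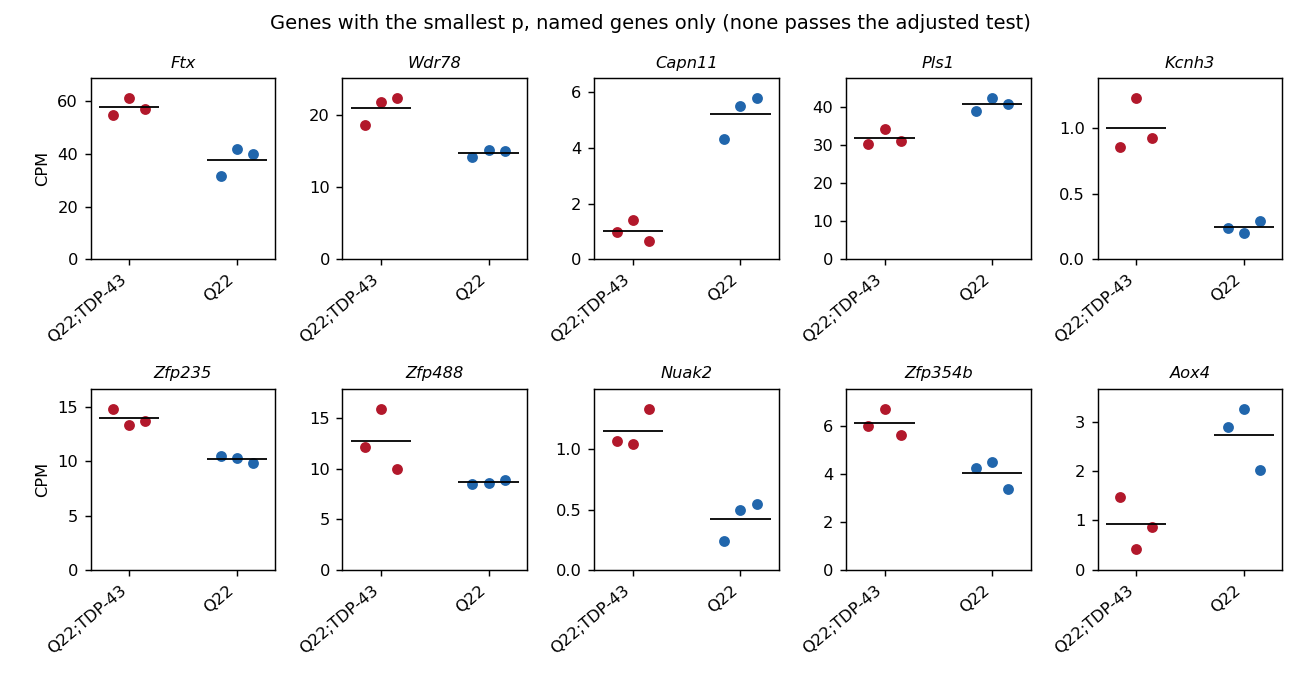
CPM per library (points; bar, group mean) of the 10 named genes among the 20 smallest p-values, Q22 double knock-in left and Q22 right in each panel, with axes from 0. In each of these 10 panels the 2 groups do not overlap, and all 10 have an edgeR adjusted p of 0.97.

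A pair of gene models shows how far 1 library can carry a value. Gm6768 (chromosome 12, 119260978 to 119262855) had 5.41, 5.55 and 0.369 CPM in the double knock-in, against 0.851, 0.346 and 0.210 CPM in Q22. Replicate 3 lay in the Q22 range, and without it Gm6768 passed the test (log2 fold change 3.56, edgeR adjusted p = 0.023), while its values over the fits tried lay between -0.30 and 3.77. In the Q33 double knock-in it had 8.0, 5.87 and 7.52 CPM, against 0.128, 0.720 and 0.536 CPM in Q33. The TDP-43 cords had 0.703, 0.337 and 0.568 CPM and the NTg cords 0.537, 0.522 and 1.29 CPM. So 5 of the 6 double knock-in libraries had over 5 CPM, and none of the other 12 libraries exceeded 1.29 CPM. Gm15446 had 11.9, 14.2 and 11.6 CPM in the double knock-in, against 11.8, 29.6 and 25.2 CPM in Q22, and passed the test without Q22 replicate 1 (-1.12, edgeR adjusted p = 0.021). Both gene models also passed without the low-count filter, a fit in which 146 genes passed and each gene's own spread no longer counted.

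Gene lists were then described by counts and medians, read against all genes (47.3% positive, median -0.01). In RNA of cord tissue, fewer cells of a type and less RNA per cell cannot be told apart. None of the 51 lists had a member that passed the test, and 38 of the 50 lists other than the sex-linked one had a median log2 fold change between -0.2 and 0.2. Levels per library are given as the mean log2 difference of a list's genes from their Q22 means.

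Motor neuron genes had lower values in the double knock-in. Of 19 tested, 18 had a negative fold change, with a median of -0.37, and 3 lay below all Q22 libraries (background 4.96%). Esrrg, an orphan nuclear receptor enriched in gamma motor neurons, had 104, 91.7 and 84.8 CPM in the double knock-in, against 125, 120 and 118 CPM in Q22 (log2 fold change -0.37, SE 0.12, edgeR adjusted p = 0.97). Ret, the receptor subunit for GDNF-family ligands, had 78.4, 69.6 and 55.6 CPM in the double knock-in, against 89.2, 80.8 and 85.9 CPM in Q22. Isl1, a transcription factor of motor neuron identity, was the third that did not overlap, and Chrna3, an acetylcholine receptor subunit gene, had the positive value (0.25); both were named after their values were seen. Over the list the libraries did overlap: the mean differences were 0.02, -0.42 and -0.60 in the double knock-in and 0.24, -0.02 and -0.21 in Q22. The library with the most Hox10 and Hox11 reads had the highest motor neuron value of the double knock-in (replicate 1) but the lowest of Q22 (replicate 3). The list median ranged from -0.51 without double knock-in replicate 1 to -0.22 without double knock-in replicate 3 and -0.20 without Q22 replicate 1. Pan-neuronal genes had 15 of 17 negative values (median -0.17, and -0.26 to -0.10 without 1 library). Elavl4, a neuronal RNA-binding protein gene, had 114, 108 and 102 CPM in the double knock-in, against 120, 132 and 125 CPM in Q22.

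Dorsal horn excitatory genes leaned the other way. Of 16 tested, 14 had a positive fold change, with a median of 0.43, and 5 lay above all Q22 libraries (background 4.92%), although none had an unadjusted p under 0.05. Lmx1b, a transcription factor that specifies these interneurons, had 21.5, 24.8 and 22.9 CPM in the double knock-in, against 17.6, 14.9 and 20.5 CPM in Q22 (log2 fold change 0.38, SE 0.29). Tac2, which encodes neurokinin B, had 12.3, 16.3 and 14.4 CPM in the double knock-in, against 7.33, 8.45 and 11.4 CPM in Q22 (0.66). Sst, the somatostatin gene, had 14.9, 14.6 and 14.4 CPM in the double knock-in, against 11.9, 7.61 and 12.8 CPM in Q22 (0.44). The sensory interneuron factors Prrxl1 (0.44) and Tlx3 (0.63) were the other 2 that did not overlap. These 5 were chosen after their values were seen. The mean differences were 0.21, 0.48 and 0.44 in the double knock-in and -0.12, -0.08 and 0.20 in Q22, so the groups nearly touched, at 0.21 against 0.20.

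Inhibitory neuron genes were mixed, with 9 of 14 positive and a median of 0.24, which was 0.086 without Q22 replicate 1. Slc6a5, the glycine transporter of inhibitory terminals, had 329, 263 and 271 CPM in the double knock-in, against 362, 350 and 375 CPM in Q22 (log2 fold change -0.33, SE 0.13). Of the 14, 3 lay above all Q22 libraries and 1 below (background 4.92% and 4.96%). The 3 were Calb1, Gbx1 and Npy, which mark sets of dorsal interneurons, and were chosen after their values were seen. Their log2 fold changes were 0.30, 0.38 and 0.65. Pvalb, the calcium buffer parvalbumin, had 24.9, 18.5 and 18.2 CPM in the double knock-in, against 42.4, 24.4 and 28.5 CPM in Q22, and the groups overlapped. Synaptic vesicle genes had 5 of 22 positive values (median -0.10), with Syn2, a vesicle phosphoprotein gene, at 141, 138 and 144 CPM in the double knock-in and 109, 127 and 131 CPM in Q22. Among 24 ion channel and glutamate receptor genes 11 were positive (median -0.04). Of the 24, 5 lay above all Q22 libraries and 2 below (background 4.92% and 4.96%). Cacna1b, a calcium channel gene with the smallest p of the list, had 111, 98.3 and 121 CPM in the double knock-in. In Q22 it had 78.7, 92.1 and 99.8 CPM, and the groups overlapped (log2 fold change 0.29, SE 0.11). In the channel genes that follow the groups did not overlap, although none of these genes passed the test. Scn2a, a voltage-gated sodium channel gene, had 174, 183 and 182 CPM in the double knock-in, against 136, 146 and 159 CPM in Q22 (0.29, SE 0.13). Cacna1e, a calcium channel gene, had 252, 281 and 331 CPM in the double knock-in, against 171, 227 and 245 CPM in Q22 (0.43, SE 0.19).

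Immediate early genes, which neurons and vessels switch on within minutes of a stimulus, had 16 of 21 positive values and a median of 0.33. The mean differences of this list were 0.31, 0.31 and 0.27 in the double knock-in and -0.08, 0.07 and 0.01 in Q22. The groups did not overlap, and without any 1 library the median stayed between 0.23 and 0.42. In mean difference they did not overlap for the dorsal horn excitatory, collagen, cholesterol synthesis and uptake, and erythroid lists either. With 3 libraries against 3, full separation has an exact two-sided permutation p of 0.1, the smallest possible. Over 51 lists, some full separations are therefore due by chance. Of all genes, 4.92% lay fully above and 4.96% fully below. Egr3, an activity-induced zinc finger transcription factor gene, had 3.65, 3.89 and 4.93 CPM in the double knock-in, against 1.75, 3.11 and 2.39 CPM in Q22 (log2 fold change 0.78, SE 0.26, edgeR adjusted p = 0.97). Apold1, an early response gene of endothelium, had 5.45, 6.43 and 4.24 CPM in the double knock-in, against 1.47, 2.62 and 3.53 CPM in Q22 (1.08, SE 0.38). Ier2 had 1.15, 1.31 and 1.61 CPM in the double knock-in, against 0.756, 0.741 and 0.965 CPM in Q22 (0.71, SE 0.31). Egr1 (0.33), Klf2 (0.65) and Klf4 (0.59) were the other 3 of 6 above all Q22 libraries, against a background of 4.92%. Not all members shared this. Fos (0.04), Jun (0.04), Junb (-0.07) and Arc (-0.07), the best known of the class, had values near 0, and Dusp6, a phosphatase gene induced by ERK signalling, lay below all Q22 libraries (-0.30). These further members were named after their values were seen. In the clock list, Per1, which is also stimulus-induced, had 25.8, 21.9 and 22.6 CPM in the double knock-in, against 16.9, 19.2 and 18.8 CPM in Q22 (0.36, SE 0.13). Arntl, which encodes the clock activator BMAL1, had 12.9, 15.1 and 14.7 CPM in the double knock-in, against 12.4, 9.89 and 11.4 CPM in Q22 (0.34, SE 0.13). The 18 clock genes had a median of -0.00, with 8 positive.

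Genes on which TDP-43 is known to act were close to the background. Of 37 long neuronal transcripts that depend on TDP-43, 18 were positive (median -0.01), and all 37 had a 95% interval within 2-fold. Of 33 splicing targets 14 were positive (median -0.03), and all 33 intervals were within 2-fold. Scaled by library totals, which moved the median of all genes to 0.06, these medians were 0.07 and 0.05. Gene counts do not resolve exons, so splicing itself was not measured. Grin3a, a glutamate receptor subunit gene, had 65.5, 71.0 and 75.3 CPM in the double knock-in, against 53.5, 63.0 and 61.3 CPM in Q22 (log2 fold change 0.25, SE 0.09). Gria4, an AMPA receptor subunit gene, had 217, 197 and 202 CPM in the double knock-in, against 254, 222 and 222 CPM in Q22 (-0.18, SE 0.08). Genes of the TDP-43 family, FET proteins and hnRNPs had 30 of 38 positive values, at a median of only 0.06. Stress granule genes and ATXN2 partners had 12 of 28 positive (median -0.02), and ALS genes 16 of 39 (median -0.02). Neat1, the scaffold RNA of paraspeckles and a known TDP-43 binding partner, had 205, 211 and 229 CPM in the double knock-in, against 231, 293 and 323 CPM in Q22 (-0.39, SE 0.12). The closest pair was 229 against 231 CPM, and the edgeR adjusted p was 0.97. On the other backgrounds Neat1 was lower too. Its log2 fold change was -0.33 (SE 0.12) for TDP-43 against NTg, which did not pass. For the Q33 double knock-in against Q33 it was -0.52 (SE 0.12, edgeR adjusted p = 0.0465).

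Most glial lists stayed near the background. The median log2 fold change was -0.03 for 15 astrocyte genes, -0.06 for 20 myelin genes, 0.02 for 13 oligodendrocyte precursor genes and -0.05 for 16 homeostatic microglia genes. Reactive astrocyte genes had 12 of 17 positive (median 0.26), but double knock-in libraries spread from -0.37 to 0.49 in mean difference, beyond the Q22 range of -0.19 to 0.27 on both sides. Their median was -0.045 without double knock-in replicate 2, 0.49 without replicate 1 of that group and 0.11 without Q22 replicate 3. Disease-associated microglia genes had 13 of 18 negative (median -0.15, and -0.32 to -0.06 without 1 library). In that list Spp1, the osteopontin gene of microglia and motor neurons, had 61.9, 48.2 and 38.4 CPM in the double knock-in. It had 95.5, 76.6 and 69.3 CPM in Q22 (log2 fold change -0.70, SE 0.26). Major histocompatibility genes had 15 of 17 negative values (median -0.28, and -0.16 without Q22 replicate 2). H2-D1, a class I gene with close relatives among which reads can be shared or lost, had 31.9, 27.1 and 22.8 CPM in the double knock-in, against 41.1, 33.5 and 32.2 CPM in Q22. Interferon response genes had 12 of 22 positive (median 0.04).

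Connective tissue and blood genes had medians of opposite sign. Collagen genes had 19 of 26 positive (median 0.16, and 0.048 without Q22 replicate 1). Of the 26, 5 lay above all Q22 libraries (background 4.92%). Col6a1 was among them, with a log2 fold change of 0.70 (SE 0.30). It had 10.4, 9.01 and 7.52 CPM in the double knock-in, against 3.64, 6.18 and 6.80 CPM in Q22. Its partner chain Col6a2 (0.59), named after its value was seen, was also among the 5. All 6 erythroid genes were negative, with a median of -0.95. Their summed level was 28.3, 36.2 and 42.2 CPM in the double knock-in and 87.0, 40.5 and 92.7 CPM in Q22. By that sum, replicate 3 of the double knock-in and replicate 2 of Q22 overlapped. Their mean differences did not overlap, with -1.13, -0.69 and -0.82 in the double knock-in and 0.12, -0.52 and 0.39 in Q22. The haemoglobin genes Hba-a1 and Hba-a2 are near-identical copies whose reads can be split or lost. Skeletal muscle genes, 11 of 14 tested, had a median of -0.97 that rested on Q22 replicate 3: it was 0.18 without that library. Their summed level was 27.6 to 40.1 CPM in the double knock-in and 37.7 to 82.0 CPM in Q22. The part of blood or muscle carry-over in other values was not tested.

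Genes of oxidative metabolism were lower as a list and overlapped by library. Of 52 nuclear genes of oxidative phosphorylation 51 were negative (median -0.20), as were all 13 protein genes of the mitochondrial chromosome (median -0.34). Ndufb5, a complex I subunit gene, had 23.3, 20.4 and 17.7 CPM in the double knock-in, against 30.0, 24.9 and 23.8 CPM in Q22 (log2 fold change -0.36, SE 0.15). The mean differences of the nuclear list were -0.04, -0.25 and -0.35 in the double knock-in and 0.27, -0.25 and -0.02 in Q22. Q22 replicate 2 thus lay as low as the double knock-in libraries, and the median was -0.07 without Q22 replicate 1 and -0.09 without double knock-in replicate 3. For the mitochondrial protein genes the Q22 libraries spanned -0.41 to 0.40 in mean difference, and the median was -0.13 without Q22 replicate 1 and -0.53 without Q22 replicate 2. Cytosolic ribosomal protein genes had 55 of 77 negative (median -0.06) and proteasome genes 27 of 31 (median -0.10).

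**Figure D4:**
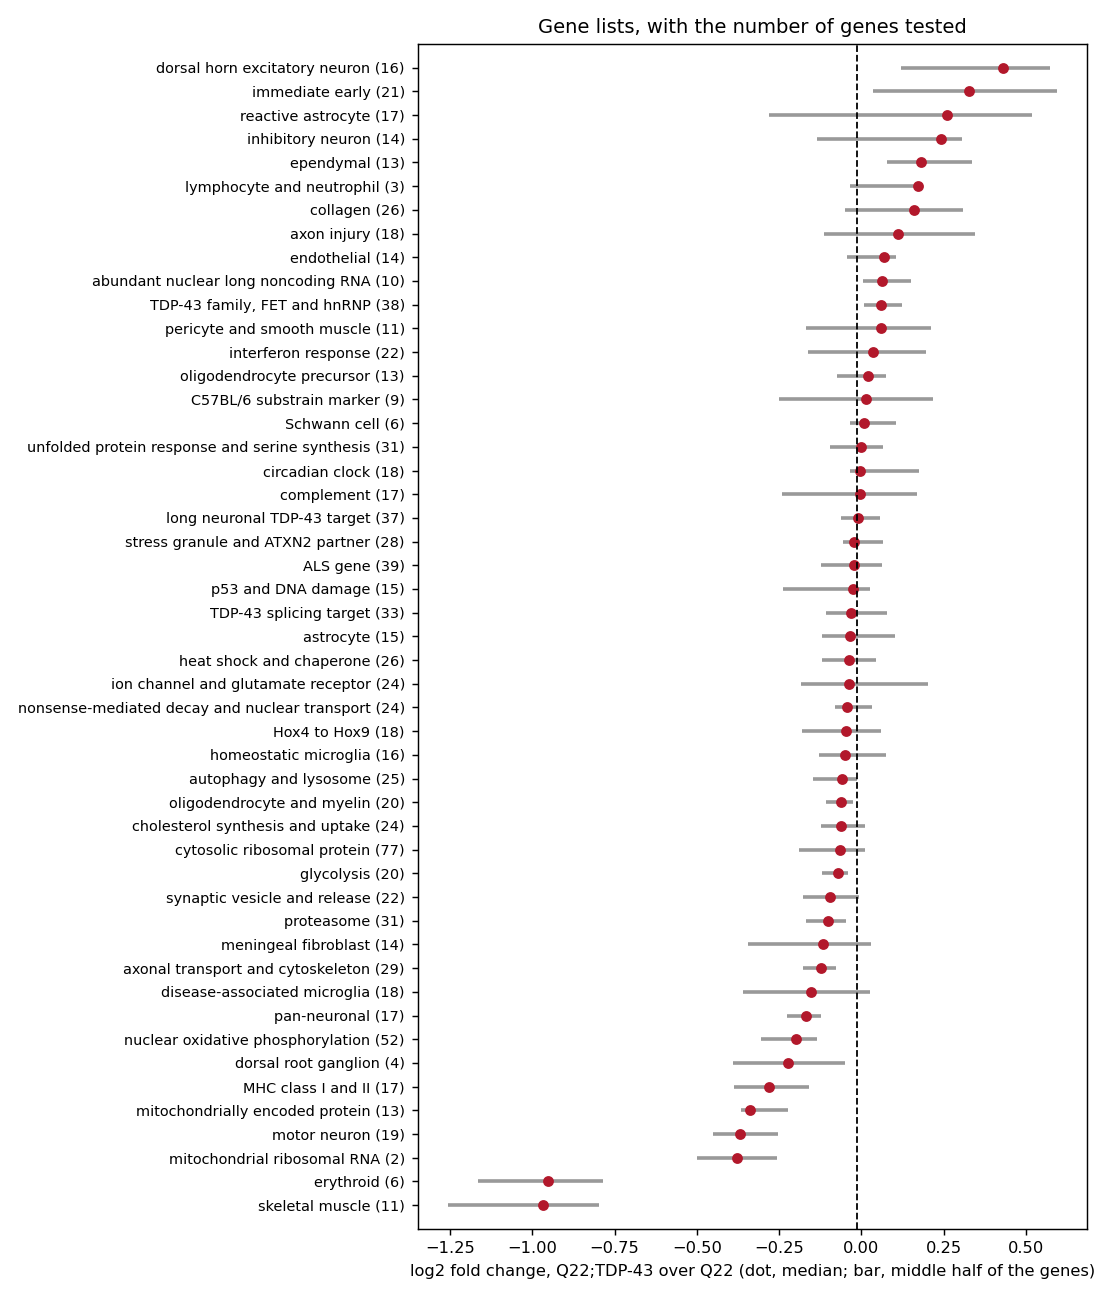
Median log2 fold change of the Q22 double knock-in over Q22 (dots) with the lower to upper quartile of each list's genes (bars), for 49 gene lists with the number of genes tested in brackets; the Hox10 and Hox11 list and the sex-linked list are not drawn. The dashed line is the median of all genes, -0.01. Dorsal horn excitatory (0.43) and immediate early genes (0.33) lie highest, erythroid (-0.95) and muscle genes (-0.97) lowest.

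To ask whether TDP-43 acted differently with and without the Q22 knock-in, its difference on Q22 was set against its difference between TDP-43 and NTg cords in 1 contrast over 12 libraries. Of 20635 genes, 0 differed in either direction (0%; edgeR adjusted p under 0.05), and 828 (4.01%) had an unadjusted p under 0.05. DESeq2 called 0 higher and 2 lower, Gm37758 and Capn11. Gm37758, a gene model on chromosome 9, had 1.43, 1.54 and 1.66 CPM in the Q22 double knock-in, against 3.03, 3.81 and 3.27 CPM in Q22. It had 2.64, 2.83 and 4.43 CPM in TDP-43 cords, against 1.84, 2.24 and 1.38 CPM in NTg cords, and the log2 difference was -1.99 (SE 0.35, edgeR adjusted p = 0.44). For Capn11 the difference was -4.51 (SE 0.86, edgeR adjusted p = 0.55). NTg cords all lacked Y-linked reads above 10 CPM, while 2 of 3 TDP-43 cords had them, so sex moved with both sides of this contrast.

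The same question was asked of tract length: whether TDP-43 acted differently on 22 than on 33 glutamines. Here 71 genes differed (0.344% of 20635), 67 with a higher value on Q22 than on Q33 (0.325%) and 4 with a lower one (0.0194%), and 3141 genes (15.2%) had an unadjusted p under 0.05. As a description of the genes chosen this way, their median log2 fold change for TDP-43 was 0.39 on Q22, -1.34 on Q33 and -0.17 without ATXN2. In 65 of the 71 the value was positive on Q22 and negative on Q33. Their size was smaller on Q22 than on Q33 in 69. DESeq2 called 303 higher and 291 lower.

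The smallest p belonged to Cacna1g, a T-type calcium channel gene (ENSMUSG00000020866.17, chromosome 11, 94408391 to 94474198). It had 72.6, 73.0 and 80.4 CPM in the Q22 double knock-in, against 61.4, 65.3 and 65.8 CPM in Q22. On the longer tract it had 33.1, 34.1 and 34.9 CPM in the Q33 double knock-in, against 63.2, 58.4 and 56.3 CPM in Q33. The log2 difference was 1.03 (SE 0.14, edgeR adjusted p = 0.0059), made up of 0.23 on Q22 and -0.80 on Q33. Necab1, a neuronal calcium-binding protein gene, had 45.9, 42.1 and 49.4 CPM in the Q22 double knock-in, against 36.8, 32.7 and 38.8 CPM in Q22. It had 15.1, 14.6 and 15.6 CPM in the Q33 double knock-in, against 31.0, 35.9 and 23.9 CPM in Q33. In both genes the 2 double knock-ins lay on opposite sides of their ATXN2 controls. Cpne5, a calcium-dependent membrane-binding protein gene (difference 2.22, SE 0.30), Gpr26, an orphan receptor gene (1.98, SE 0.29), and Otof, the synaptic calcium sensor otoferlin (2.23, SE 0.32), had the same pattern of signs.

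The genes that differed included 6 of the 16 dorsal horn excitatory genes and 3 of the 14 inhibitory ones, read against 0.325% of all genes. These lists were chosen with earlier results of these data known, so the shares are a description and not a test. Ebf2, a transcription factor gene, had 21.7, 33.8 and 31.9 CPM in the Q22 double knock-in, against 17.4, 19.1 and 22.8 CPM in Q22. It had 1.5, 1.61 and 4.03 CPM in the Q33 double knock-in, against 17.2, 20.2 and 8.20 CPM in Q33, and the difference was 3.25 (SE 0.56, edgeR adjusted p = 0.023). Lmx1b had 2.59, 1.61 and 6.02 CPM in the Q33 double knock-in, against 16.6, 17.1 and 11.8 CPM in Q33, and differed by 2.55 (SE 0.44). The carbonic anhydrase gene Car12 (3.13), the neuromedin U receptor gene Nmur2 (3.78), Prrxl1 (1.69) and Sst (1.6) completed the 6. Pdyn, which encodes the opioid precursor prodynorphin (2.08), Calb1 (1.14) and the homeobox gene Gbx1 (1.72) were the 3 inhibitory ones. Egr3 differed by 2.62 (SE 0.40, edgeR adjusted p = 0.0092), with 0.375, 0.684 and 0.620 CPM in the Q33 double knock-in, against 1.97, 1.62 and 2.41 CPM in Q33. Kcnip2, a potassium channel subunit and TDP-43 splicing target (1.93), the hyaluronan receptor gene Cd44 (1.89) and the matrix protein gene Thbs1 (1.48) also passed. Ftx (1.09) and Wdr78 (0.85) were among them. The 4 lower genes were Esrrg (-0.82), Ap3s2, a vesicle adaptor gene (-0.72), Ndrg4 (-0.80) and the apolipoprotein L gene Apol8 (-1.08). Esrrg had 181, 162 and 156 CPM in the Q33 double knock-in, against 116, 121 and 129 CPM in Q33, and its values on Q22 ran the other way.

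Properties of the libraries moved with the groups of this contrast. Hox10 and Hox11 reads summed to 65.5, 105 and 53.3 CPM in the Q33 double knock-in, against 1.33, 73.7 and 62.7 CPM in Q33. Mitochondrial ribosomal RNA took 19.3%, 20.1% and 16.7% of counts in the Q22 double knock-in, against 19.6%, 20.1% and 20.7% in Q22. It took 28.7%, 26.3% and 23.4% in the Q33 double knock-in, against 19.5%, 23.4% and 18.3% in Q33. With that share as a term in the fit, 0 genes passed as higher and 0 as lower. In that fit Cacna1g differed by 0.90 (SE 0.15, edgeR adjusted p = 0.11), Necab1 by 1.38 (SE 0.23), Lmx1b by 2.21 (SE 0.48) and Egr3 by 2.08 (SE 0.42). Without the term these genes differed by 1.03, 1.34, 2.55 and 2.62, in the same order. How far the share accounts for the difference was not tested. The count also depended on single libraries, from 6 to 166 higher and from 0 to 85 lower when 1 library was left out. It rose to 166 and 85 without replicate 1 of the Q22 double knock-in, the library with Hox10 and Hox11 reads, and was lowest, 6 and 0, when the first replicate of the Q33 double knock-in was left out.

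**Figure D5:**
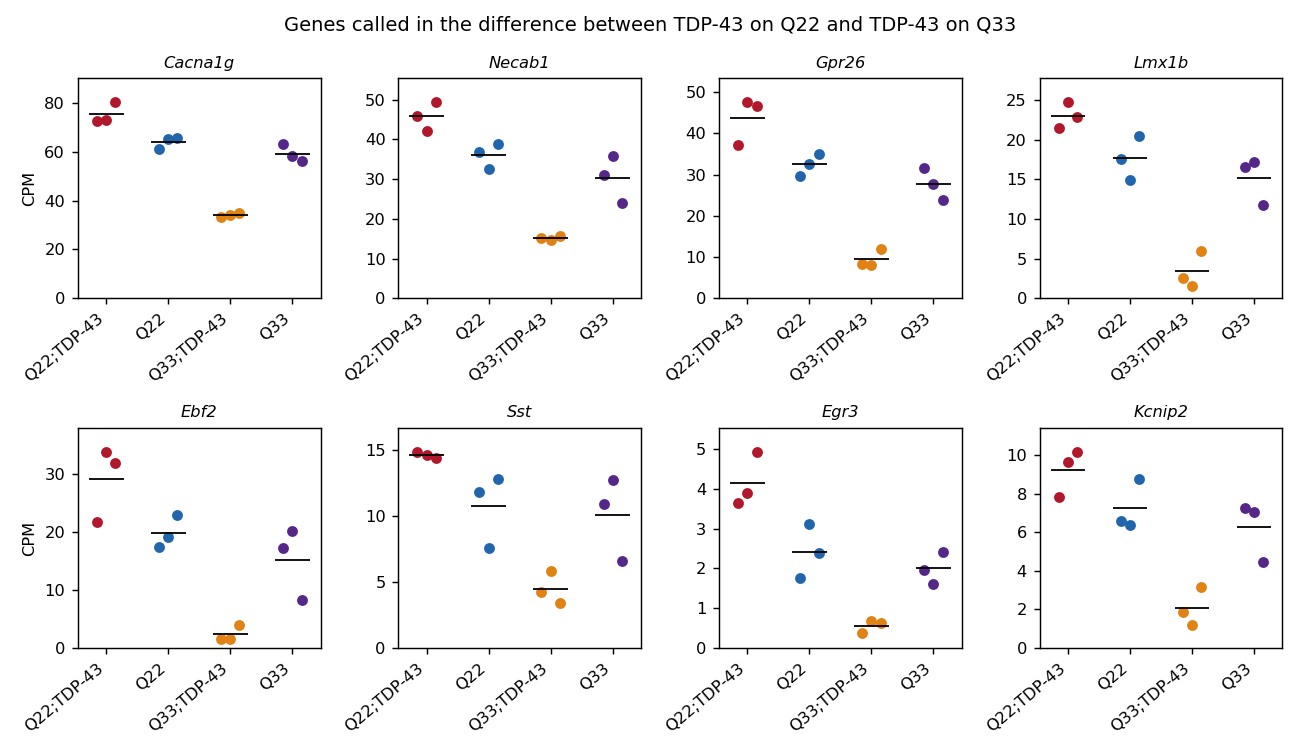
CPM per library (points; bar, group mean; axes from 0) of 8 genes that passed the test of the difference between TDP-43 on Q22 and TDP-43 on Q33. In each panel the Q33 double knock-in lies below Q33, while the mean of the Q22 double knock-in lies above that of Q22.

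Promoter sequence is shown for Sst and Lmx1b, called in that difference, to put the letters beside the values. The cAMP response element, TGACGTCA, through which activity and cAMP act on somatostatin, was searched on both strands in RefSeq windows of GRCm38.p6 from 250 bases before to 50 after each start, and so were its first 6 letters, TGACGT, which both motifs share. Both sequences are the 250 bases before the start, on the minus strand, with the match in capitals. Sst lies at chr16:23890845-23891094, with its match beginning 48 bases before the start. Lmx1b lies at chr2:33641099-33641348, with the shorter match beginning 130 bases before the start.
Sst: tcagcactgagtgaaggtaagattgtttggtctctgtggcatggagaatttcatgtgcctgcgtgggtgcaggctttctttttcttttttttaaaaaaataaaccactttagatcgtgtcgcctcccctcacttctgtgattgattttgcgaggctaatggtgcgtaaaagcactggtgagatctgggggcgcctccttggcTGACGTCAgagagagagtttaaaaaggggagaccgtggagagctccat
Lmx1b: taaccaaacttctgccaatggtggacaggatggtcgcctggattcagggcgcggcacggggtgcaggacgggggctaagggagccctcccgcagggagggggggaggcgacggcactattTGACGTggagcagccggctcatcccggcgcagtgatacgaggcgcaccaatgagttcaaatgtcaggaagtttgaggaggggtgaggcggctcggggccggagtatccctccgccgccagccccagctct
Of 32851 windows 1.79% held TGACGTCA and 7.51% held TGACGT. Of the 71 genes that differed, 41 had a window, some of them several (57 windows in all). Counted by gene, 2 held the first motif (Sst and Th) and 6 the second, which is not the same measure as a share of windows. A match describes letters only and does not show that a factor binds there.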

How the data were processed

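Total RNA was extracted with QIAzol, depleted of ribosomal RNA and made into stranded libraries, per the labels' protocols. The deposited values are raw read counts for each gene, made by the authors with featureCounts (1.6.1, stranded, read pairs, GENCODE M19 exons on mm10), per the file headers, which also give the gene length deposited beside them. Trim Galore 0.4.1, TopHat2 and DESeq2 are named in the submitters' processing notes. Pairs that match several genes or places are left out, so near-identical genes are undercounted. Symbols were matched for 54409 of 54446 identifiers.

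Counts were tested with edgeR 4.0.16 (limma 3.58.1, R 4.3.3): TMM scaling, the default low-count filter, 1 quasi-likelihood fit over all 18 libraries with a term per genotype, two-sided, Benjamini-Hochberg adjusted over 20635 genes at 0.05. The script was tested on simulated data. CPM (counts per 1000000) uses the TMM-scaled library size. List deviations use log2 CPM with a prior count of 2. Intervals are 95% confidence intervals of the fitted difference, with the spread between animals estimated over all 18 libraries. The floor of 3 counts covers counting error only. Single measures used exact permutation tests (scipy 1.17.1). Alternatives were DESeq2 1.42.0, library totals, no mitochondrial ribosomal RNA genes, no low-count filter, terms for sex, Hox10 and Hox11 level or mitochondrial ribosomal RNA share, fewer libraries, and leaving out each library. One exclusion of a pair of libraries was added after seeing the data.

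Named genes were Atxn2 and Tardbp, the 12 largest rises and falls that passed (there were none), the 20 smallest p-values at a mean of at least 1 CPM, up to 3 members per list with the smallest p (called members first), and the 5 smallest p-values of each difference; others are marked as chosen after their values were seen. In the Q33 difference, the list members and the 4 lower genes were also chosen after their values were seen. The gene lists and comparisons were chosen with earlier results of these data known.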

Additional observations from a re-analysis of the deposited data

Results flagged for a closer look

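The results here are those in which the difference made by TDP-43 on Q22 was not the difference it made on Q33, by the test of the difference itself (edgeR adjusted p under 0.05). There were 67 genes with a higher value on Q22 and 4 with a lower one. All are log2 differences, TDP-43 added to Q22 minus TDP-43 added to Q33.

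The dorsal horn excitatory genes had 2.55 for Lmx1b, 3.13 for Car12, 3.78 for Nmur2, 1.69 for Prrxl1, 3.25 for Ebf2 and 1.6 for Sst. Inhibitory interneuron genes had 2.08 for Pdyn, 1.14 for Calb1 and 1.72 for Gbx1. Calcium, channel and receptor genes had 1.03 for Cacna1g, 2.22 for Cpne5, 1.34 for Necab1, 2.23 for Otof, 1.98 for Gpr26 and 1.93 for Kcnip2. Further values were 2.62 for the immediate early gene Egr3, 1.89 for Cd44, 1.48 for Thbs1, 1.09 for Ftx and 0.85 for Wdr78. The lower ones were -0.82 for Esrrg, -0.72 for Ap3s2, -0.80 for Ndrg4 and -1.08 for Apol8. No test for outlying samples was applied to single values, since each group had 3 libraries.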

How the results depend on the processing

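For the Q22 double knock-in against Q22, all alternatives except 3 also gave 0 genes higher and 0 lower. Without the low-count filter 47 genes were higher and 99 lower, of which 145 of 146 were also in the filtered table. That fit of 39219 genes had 1833 with an unadjusted p under 0.05 and an infinite prior degrees of freedom for the spread, against 6.21 with the filter, so each gene's own spread no longer counted. Leaving out 1 library gave 0 to 1 higher (Gm6768, without replicate 3 of the double knock-in) and 0 to 1 lower (Gm15446, without Q22 replicate 1). For the difference with TDP-43 on no ATXN2, no filter gave 51 higher and 142 lower, and DESeq2 gave 2 lower. For the difference with TDP-43 on Q33 (67 higher, 4 lower), DESeq2 gave 303 and 291, library totals 160 higher, no filter 460 and 378, a sex term 37 and 2, and the term for mitochondrial ribosomal RNA share 0 and 0. Leaving out 1 library gave 6 to 166 higher and 0 to 85 lower. Fewer than 45 were higher without any 1 Q22 library (10, 12 and 34), replicate 2 or 3 of the Q22 double knock-in (12 and 9), the first or second Q33 library (9 and 9) or the first or second library with Q33 and TDP-43 (6 and 42). Without Q33 replicate 3, 8 were lower, and without replicates 2 and 3 of the mice with Q33 and TDP-43, in turn, 17 and 21. The 166 and 85 came without replicate 1 of the Q22 double knock-in. Leaving out together the Q22 library with Xist reads and the double knock-in library with Hox10 and Hox11 reads, chosen after seeing the data, gave 18 higher. Apart from the filter, the cause was not tested. Library totals moved the median of all genes to 0.06 in the main comparison and to 0.22 in the difference with Q33.

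Signs turned for a few genes. Atxn2 was 0.033 with library totals, 0.039 in libraries with Y-linked reads and 0.024 without both libraries just named. In libraries with Y-linked reads Gm6768 was -0.30 and Chrna3 was -0.018. Without 1 library each, Ttn, the titin gene of muscle, ranged from -1.28 to 0.0066, the highest without Q22 replicate 3. Hoxd11 was -0.74 with the Hox term, -3.23 in libraries with Y-linked reads, -3.27 to 9.58 without 1 library each (negative only without double knock-in replicate 1) and -3.77 without both libraries. Hoxc11 was -0.14 with the Hox term and -1.93 in libraries with Y-linked reads. In the difference with Q33, Cacna1g, Cpne5, Necab1, Otof, Gpr26 and Pdyn lost their call only with the mitochondrial term (adjusted p 0.11 to 0.21), where their differences were 0.90, 1.86, 1.38, 1.95, 1.70 and 2.12. The other named genes lost theirs in 2 (Egr3) to 13 (Thbs1 and Gbx1) of 20 alternatives. No paired analysis was possible because the labels give the animals no shared replicate numbers.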
